A study of Homo sapiens with 4 samples.

Results

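The genes described here are the catalytic subunits of the human KMT2 (MLL, COMPASS) complexes and 4 of their partners, followed in the RNA of HCT116 cells after transfection of an antisense oligonucleotide (ASO) against tandem GAA repeats. HCT116 is an established colorectal cancer line. The members are the rows of the count table whose Ensembl identifier belongs to KMT2A, KMT2B, KMT2C, KMT2D, SETD1A, SETD1B, KDM6A, ASH2L, WDR5 or RBBP5, which makes 10 of 63677 genes counted. Of these, 9 had counts and were among the 15116 genes tested. The anti-GAA ASO is complementary to a GAA repeat of 21 nt and carries a central DNA stretch through which RNase H can cut the paired RNA. Cells of the other group received a control ASO, there was no untreated library, and the labels give 48 h of transfection for both groups, while the paper's methods give a shorter time for ASOs. Each ASO was given to 2 replicates, numbered 1 and 2 in the labels, which the paper's methods describe as repeat experiments. The question put to these genes is whether their RNA differs with an ASO designed to deplete GAA-repeat RNAs, KMT2C being one of the RNAs that the study also quantified by RT-qPCR.

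KMT2 proteins are SET-domain enzymes that methylate lysine 4 of histone H3. KMT2A and KMT2B (menin-containing complexes) act mainly at promoters of developmental genes such as the HOX clusters, KMT2C and KMT2D monomethylate enhancers, and SETD1A and SETD1B supply most of the trimethylation at active promoters. All of them depend on a shared core in which WDR5, RBBP5 and ASH2L bind the catalytic subunit and raise its activity. KDM6A (UTX), a demethylase of lysine 27 of histone H3, belongs, among these complexes, to those of KMT2C and KMT2D. KMT2C, KMT2D and KDM6A are frequently mutated in cancer.

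The 4 libraries held 10538284 to 17894953 counts on genes, with the smallest in anti-GAA replicate 1. Of 7 epithelial markers, 6 had a mean of at least 1 CPM (counts scaled to library size by TMM, so that libraries compare), and their summed level was 2575 to 2907 CPM with the anti-GAA ASO and 2669 to 2911 CPM with the control. KRT19 was the largest part of the sum, and the markers differed in direction. EPCAM, CDH1, KRT8 and KRT18 were lower in both anti-GAA libraries than in both controls (as were 16.9% of tested genes), with log2 fold changes of -0.21, -0.40, -0.27 and -0.54 (edgeR adjusted p = 0.996 each), CDX2 was higher in both (0.28, edgeR adjusted p = 0.996) and KRT19 overlapped. Whether this has a part in the members' values was not tested. VIL1 was at or near 0 in every library. Of 9 markers of blood, fibroblasts and endothelium only COL1A1 reached a mean of 1 CPM, the summed level was 10.4 to 13.7 CPM against 12.3 to 14.6 CPM, and 4 of the 9 were at 0 in every library. In bulk RNA, fewer cells that express a gene and less of its RNA per cell cannot be told apart.

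Because the ASO pairs with GAA repeats, the longest uninterrupted GAA run of each member was read from its longest GENCODE 44 transcript on GRCh38. No tested member held a run of the full 21 nt of the ASO target in that transcript. The runs of the KMT2 enzymes and KDM6A are given on the RNA strand, written as DNA, with the run in capitals and 8 or 9 flanking bases on either side, because they set how much of the ASO each RNA could pair with without a mismatch.
KMT2A: aaacccacaAAGAAGAAGAAagtctggat
KMT2B: agagaagaAAGAAGAAGAAGAAaaagacaa
KMT2C: aaactatagAGAAGAAGAtcttattct
KMT2D: aaggggatgAGAAGAAGAAGcaacagcgg
SETD1A: caagttccgGAAGAAGAAGctccgattt
SETD1B: tcttcagctAAGAAGAAGAAacgggacga
KDM6A: ggcggacaaAAGAAGAAccagctcat

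The run of KMT2C, 9 nt, lies in coding exon 20 of 59 on the minus strand of chr7:152224045-152224053. KMT2B held the longest of the set at 14 nt, in coding exon 3 of 37 (chr19:35720453-35720466). KMT2A (exon 13 of 37, chr11:118489870-118489880), KMT2D (exon 23 of 56, chr12:49043928-49043938, minus strand) and SETD1B (exon 13 of 17, chr12:121825220-121825230) each had a coding run of 11 nt, and SETD1A one of 10 nt (exon 17 of 19, chr16:30981066-30981075). The KDM6A run of 8 nt is that of its longest protein-coding transcript (exon 28 of 30, chrX:45107502-45107509). WDR5, RBBP5 and ASH2L had runs of 8, 9 and 9 nt. Allowing mismatches, the best window of 21 nt in each member matched the repeat at 14 (ASH2L) to 18 (KMT2B) bases.

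A run as long as the ASO target was annotated in 1 member outside its longest transcript.
KMT2A, short transcript: aaaaAAGAAGAAGAAGAAGAAGAAGgttt
This run of 21 nt is in the last exon, annotated as 3' UTR, of a KMT2A transcript classed as a target of nonsense-mediated decay (chr11:118513250-118513270). In the longest KMT2A transcript the same bases are intronic. The counts are per gene, so this transcript has no value of its own here.

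Among all tested genes with a transcript, the log2 fold change of anti-GAA over control had a median of 0.03 in the 11789 genes with a run under 9 nt, -0.04 in the 2588 with 9 to 11 nt, -0.11 in the 280 with 12 to 14 nt and -0.42 in the 94 with 15 nt or more. Of this last class 84.0% were lower, against 46.0% of the first. All 9 tested members belong to the first 2 classes, WDR5 and KDM6A to the first and the other 7 to the second.

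**Figure D1:**
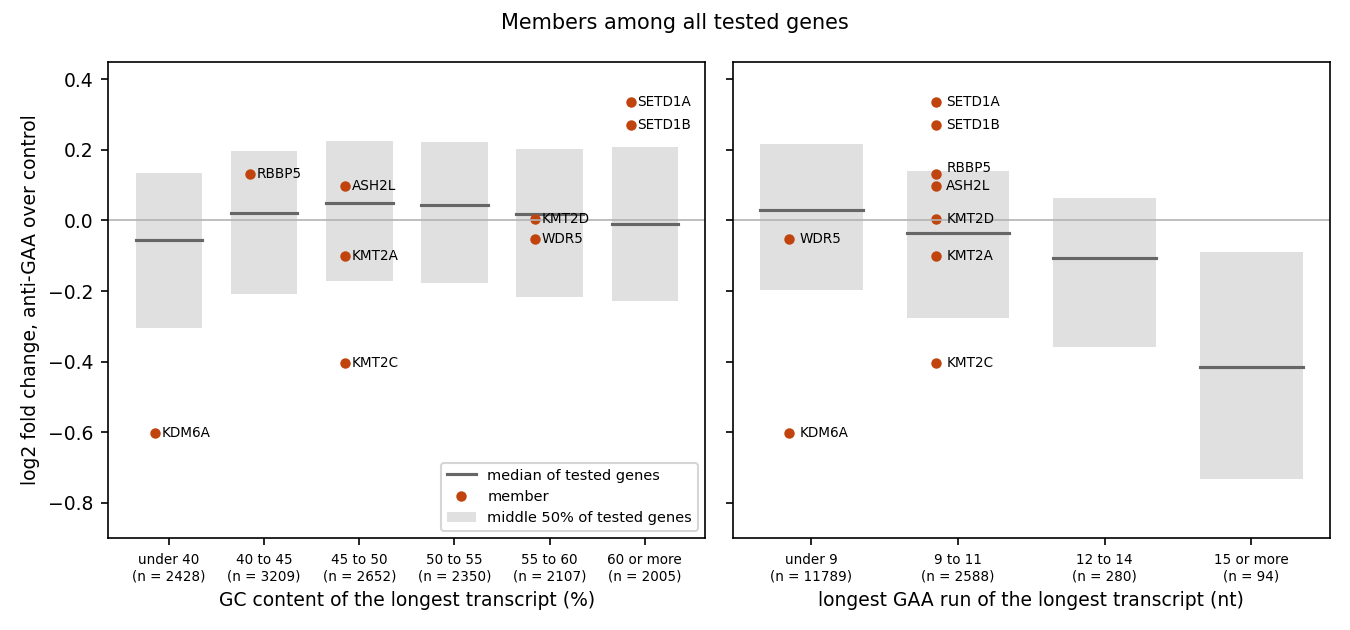
Log2 fold change (anti-GAA over control, y axis) by class of GC content (left) and of longest GAA run (right) of the longest transcript. Grey boxes span the middle 50% of tested genes with the median as a line, n is the number of genes in a class, and each point is 1 tested member. KDM6A is placed by its longest transcript, a retained-intron form. KDM6A and KMT2C lie below the box of their class in both panels and SETD1A and SETD1B above it, while no member is in the classes of 12 nt or more.

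By counts per length, the shared core stood highest and KMT2C, KDM6A and KMT2D lowest of the detected members. How reads that match more than 1 annotated gene were counted is not given, so this is an order of counts. Mean CPM per kb of the longest transcript over the 4 libraries was 37.4 ± 8.47 (SD, n = 4) for WDR5, 21.9 ± 3.05 for ASH2L and 6.41 ± 0.488 for RBBP5, and the ranges of these 3 did not overlap. SETD1B (2.61 ± 0.532), KMT2A (2.38 ± 0.287) and SETD1A (2.15 ± 0.324) followed with overlapping ranges, so their order is within the spread between libraries. KMT2C (0.718 ± 0.203) and KDM6A (0.676 ± 0.286) also overlapped each other. KMT2D was lowest at 0.130 ± 0.00581 CPM per kb. The longest KDM6A transcript, 12117 nt, is a retained-intron form, and on its longest protein-coding transcript of 6094 nt KDM6A came to 1.34 CPM per kb, above KMT2C. With the union of annotated exons as length, SETD1A (1.99) stood above KMT2A (1.27) and KDM6A (0.295) above KMT2C (0.227).

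KMT2B was listed at 0 in all 4 libraries. A count of 0 allows up to 3 counts, or 0.169 to 0.303 CPM, in a library, and this limit covers counting error only. Of 19322 protein-coding genes matched to the annotation, 3399 (17.6%) were at 0 in all libraries. How reads that match more than 1 annotated gene were counted is not given in the sources used here, so a listed 0 is not a measure of expression. No fold change is given for KMT2B.

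**Figure D2:**
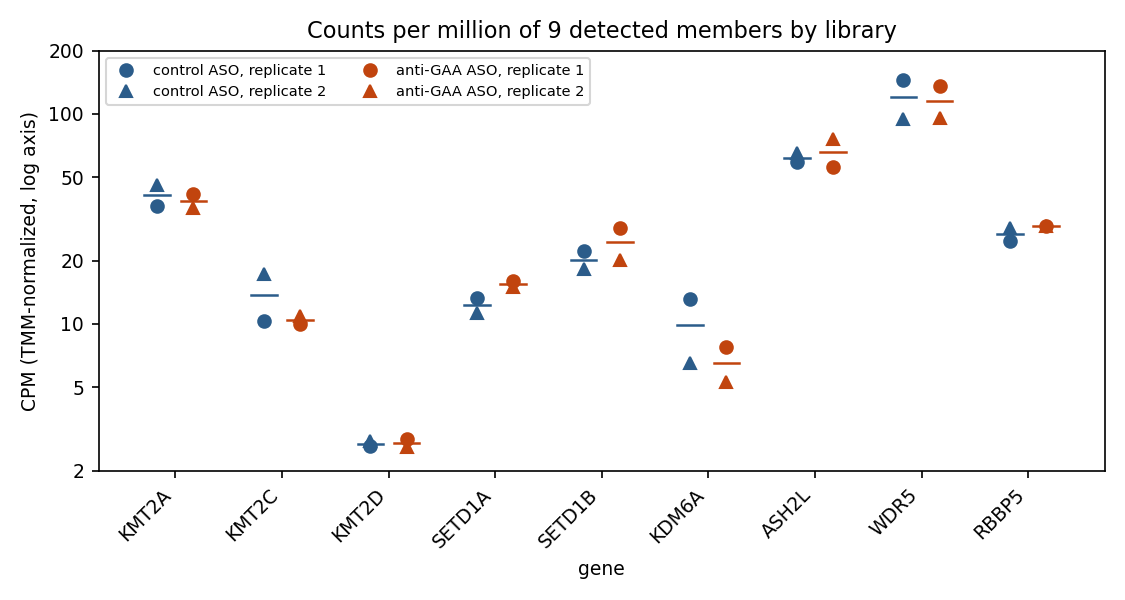
TMM-normalized CPM (log axis) of the 9 detected members in each library, by ASO (colour) and replicate (shape), with a bar at the mean of the 2 libraries. KMT2C is high in control replicate 2 only, KDM6A is high in control replicate 1, and SETD1A is higher in both anti-GAA libraries than in both controls.

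KMT2C (ENSG00000055609, chr7:152134922-152436644, minus strand), a monomethyltransferase of enhancers, had 99 and 193 counts in anti-GAA replicates 1 and 2 and 159 and 292 in control replicates 1 and 2. Normalized, these were 10.002 and 10.8 CPM in the anti-GAA libraries, against 10.4 and 17.2 CPM in the controls. The other 3 libraries thus sat close together below control replicate 2, and the groups overlapped. The means were 10.4 ± 0.597 and 13.8 ± 4.84 CPM (SD, n = 2 each). The log2 fold change was -0.40 (SE 0.31, 95% interval -1.14 to 0.34, or 0.452 to 1.26 of the control level), with an adjusted p = 0.996 in edgeR's quasi-likelihood test with Benjamini-Hochberg adjustment. The controls differed from each other by 0.72 in log2 CPM, more than the difference between ASOs, and 16.2% of tested genes had a larger gap between the controls. With a term for replicate number in the fit, the log2 fold change was -0.39 (SE 0.21, edgeR adjusted p = 0.389). Between libraries of the same replicate number, the difference was -0.05 for number 1 and -0.66 for number 2. Without control replicate 2 the log2 fold change was 0.02, and without control replicate 1 it was -0.73.

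The KMT2C primers of the study's RT-qPCR are shown because they mark the stretch of the RNA that was assayed there.
KMT2C forward: accacgaaaacaaagaggaca
KMT2C reverse: tgggtgcttacacttacacaaga
They match bases 781 to 858 of the longest transcript, in exons 4 and 5, a product of 78 nt that ends 2643 bases before the GAA run. Stretches covering 14.4% of the KMT2C transcript have copies of at least 100 nt and 97% identity on chromosomes 1, 2, 13, 21 and 22, and 0 bases of the product lie in them. The 3 counted genes at these copies had 1 count in all, in anti-GAA replicate 1. Of the other members only KDM6A had copies by the same limits, covering 4.98% of its longest transcript. How reads that fit KMT2C or KDM6A and a copy equally were counted is not given in the sources used here.

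KMT2D (ENSG00000167548, chr12:49018975-49060794, minus strand), the closest paralog of KMT2C, had 28 and 46 counts with the anti-GAA ASO and 40 and 47 with the control, or 2.83 and 2.59 against 2.61 and 2.77 CPM. The 4 values nearly coincided, and the log2 fold change was 0.00 (SE 0.36, 95% interval -0.85 to 0.86, edgeR adjusted p = 0.997). At this depth the interval still spans 0.555 to 1.81 of the control level. KDM6A (ENSG00000147050, chrX:44873188-45112779), the demethylase of the same complexes, was at 7.78 and 5.28 CPM in the anti-GAA libraries, against 13.2 and 6.55 CPM in the controls. Control replicate 1 stood highest and the groups overlapped. Its log2 fold change of -0.60 (SE 0.41, 95% interval -1.58 to 0.37, edgeR adjusted p = 0.996) was the lowest of the 9, and 8.21% of tested genes had a lower one. The gap between its controls was 0.99 in log2 CPM, larger than the difference between ASOs. Its anti-GAA libraries differed by 0.55, also with replicate 1 above replicate 2. With a term for replicate number in the fit, the log2 fold change was -0.54 (SE 0.22, edgeR adjusted p = 0.248). By replicate number the differences between ASOs were -0.75 and -0.30. Without control replicate 1 the log2 fold change was -0.02, and without control replicate 2 it was -1.01. KMT2C and KDM6A, partners in 1 complex, thus lost most of their difference when different controls were left out. These were replicate 2 for KMT2C and replicate 1 for KDM6A. Leaving out 1 library also leaves the replicate numbers unbalanced between the ASOs.

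KMT2A (ENSG00000118058, chr11:118436456-118526832), the MLL protein rearranged in leukaemia, was at 41.5 and 35.5 CPM in the anti-GAA libraries, against 36.6 and 45.9 CPM in the controls. The 2 replicate numbers went opposite ways, with differences of 0.18 and -0.37, and the log2 fold change was -0.10 (SE 0.22, 95% interval -0.63 to 0.43, edgeR adjusted p = 0.996). SETD1A (ENSG00000099381, chr16:30957294-30984664) was at 16.1 and 14.9 CPM in the anti-GAA libraries, against 13.3 and 11.3 CPM in the controls. The groups did not overlap, and neither did those of 15.5% of tested genes in this direction. The log2 fold change was 0.34 (SE 0.24, 95% interval -0.24 to 0.91, edgeR adjusted p = 0.996), with differences of 0.27 and 0.40 by replicate number. SETD1B (ENSG00000139718, chr12:121804009-121832656), its paralog, was at 28.7 and 20.2 CPM against 22.3 and 18.2 CPM. Both replicate numbers were higher with the anti-GAA ASO, by 0.36 and 0.15, but the groups overlapped, and the log2 fold change was 0.27 (SE 0.26, 95% interval -0.35 to 0.88, edgeR adjusted p = 0.996). Without anti-GAA replicate 1 it was 0.01.

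Of the shared core, WDR5 (ENSG00000196363, chr9:134135365-134159968), the propeller that holds the catalytic subunit, was at 137 and 95.1 CPM in the anti-GAA libraries, against 145 and 94.8 CPM in the controls. Its libraries grouped by replicate number rather than by ASO, and the log2 fold change was -0.05 (SE 0.28, 95% interval -0.73 to 0.62). RBBP5 (ENSG00000117222, chr1:205086142-205122015, minus strand), which with ASH2L activates the SET domain, was at 29.3 and 29.3 CPM in the anti-GAA libraries, against 24.8 and 28.6 CPM in the controls. The groups did not overlap, with both anti-GAA libraries above, as in 15.5% of tested genes. Its log2 fold change was 0.13 (SE 0.21, 95% interval -0.36 to 0.62). It was 0.03 without control replicate 1 and 0.25 without control replicate 2. ASH2L (ENSG00000129691, chromosome 8) was at 56.1 and 76.1 CPM against 58.9 and 64.9 CPM, with a log2 fold change of 0.10 (SE 0.23, 95% interval -0.44 to 0.64). The edgeR adjusted p was 0.996 for each of these 3.

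**Figure D3:**
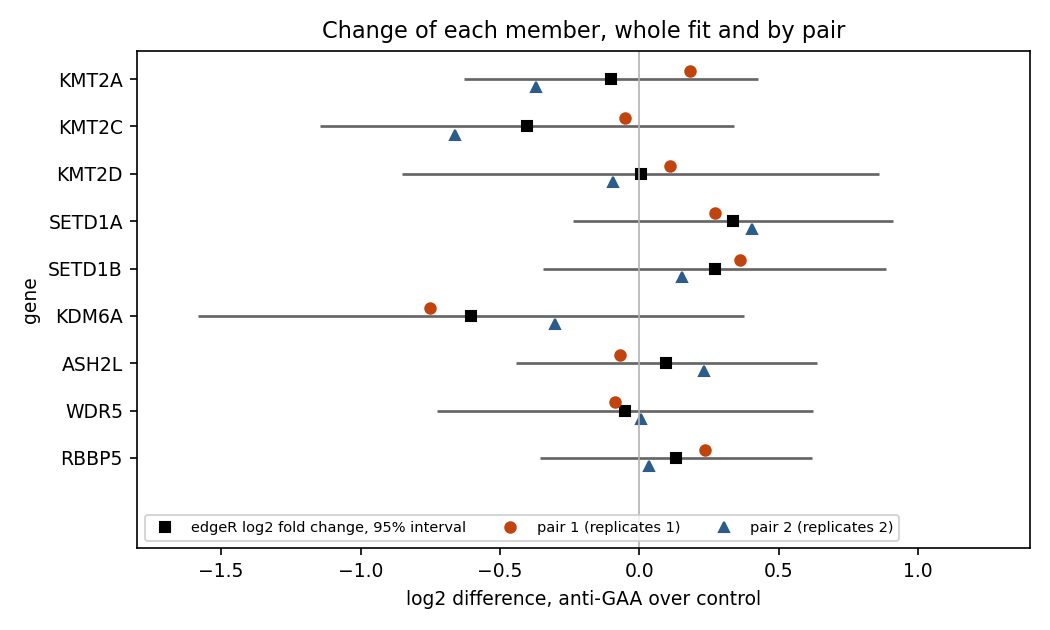
Log2 difference of anti-GAA over control for the 9 tested members, with the edgeR estimate and its 95% interval (square and line) and the difference in log2 CPM between libraries of replicate number 1 (circle) and 2 (triangle). Every interval crosses 0. Both replicate numbers lie below 0 for KMT2C and KDM6A and above 0 for SETD1A, SETD1B and RBBP5.

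As a group, no member passed the test. At a threshold of 0.05 on the adjusted p, 0 of the 9 tested were lower and 0 higher. The background by edgeR was 0.0% of the 15116 tested genes in either direction, in a fit without a term for replicate number. Adding that term raised the background to 1.37% lower (207 genes) and 0.337% higher (51), still with 0 members in either direction. The 0.0% is therefore no sign that the ASO changed no gene. Without that term there was also no member at an unadjusted p under 0.05 in either direction by edgeR or DESeq2. At that limit edgeR gave 3.46% of all tested genes lower (523) and 1.02% higher (154). DESeq2 called 3 genes lower and 0 higher, none of them a member. The members split into 4 with a log2 fold change below 0 and 5 above, with a median of 0.00 beside 0.01 over all tested genes, of which 48.4% were below 0. In both replicate numbers 2 members were lower (30.0% of all tested genes) and 3 were higher (31.8%). Groups did not overlap for 0 members in the lower direction (16.9% of all tested genes) and for SETD1A and RBBP5 in the higher (15.5%). With so few members, these counts beside the shares over all genes are not a result about the members.

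KMT2C was also set against the other KMT2 enzymes within each library, as its log2 CPM minus the mean log2 CPM of KMT2A, KMT2B, KMT2D, SETD1A and SETD1B. This value was 0.76 and 1.07 in anti-GAA replicates 1 and 2 and 1.00 and 1.75 in control replicates 1 and 2. The mean was 0.46 lower with the anti-GAA ASO, and the groups overlapped (exact two-sided permutation test, p = 0.667, with 0.333 the smallest that 2 against 2 libraries can give). Without KMT2B, which enters only through the prior count, it was 0.48 lower. The values were then -0.61 and -0.26 in anti-GAA replicates 1 and 2 and -0.33 and 0.43 in control replicates 1 and 2. Their sign thus depends on KMT2B. With KMT2B kept, the difference was -0.08 without control replicate 2 and -0.83 without control replicate 1. Its size rests on control replicate 2 as that of KMT2C itself does.

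The members also differed in transcript length and GC content. KMT2A (16725 nt), KMT2C (16860 nt), KMT2D (20686 nt) and KDM6A belong to the 595 tested genes with a longest transcript of 10000 nt or more. That class had a median log2 fold change of -0.09, and 62.5% were lower. KDM6A is placed there by its retained-intron form of 12117 nt, which the offsets given below also used. Its longest protein-coding transcript has 6094 nt. SETD1A (62.3% GC) and SETD1B (61.4%) had the highest GC content of the tested members and the highest log2 fold changes, and KDM6A the lowest of both (36.4% GC, or 43.1% on its coding transcript). Across the 9 members GC content and log2 fold change had a Pearson r of 0.75 and a Spearman rho of 0.70, as a description of points that share the same 4 libraries. On the longest protein-coding transcripts r was 0.67 and rho 0.70. Across 14751 tested genes r was 0.01 and rho 0.06. The longest GAA run had r = 0.50 and rho = 0.42 over the members, against -0.09 and -0.13 over the tested genes. Log2 transcript length had -0.44 and -0.43, against -0.08 and -0.13. Log2 mean CPM had 0.23 and 0.18 over the members. With offsets that removed each library's trend on length and GC content, the log2 fold change was -0.26 for KMT2C, -0.40 for KDM6A, 0.04 for KMT2A, 0.21 for KMT2D, 0.45 for SETD1A and 0.41 for SETD1B, with KDM6A still the lowest and SETD1A the highest of the 9. The part of GC content, length or GAA run in the members' differences was not tested.

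**Figure D4:**
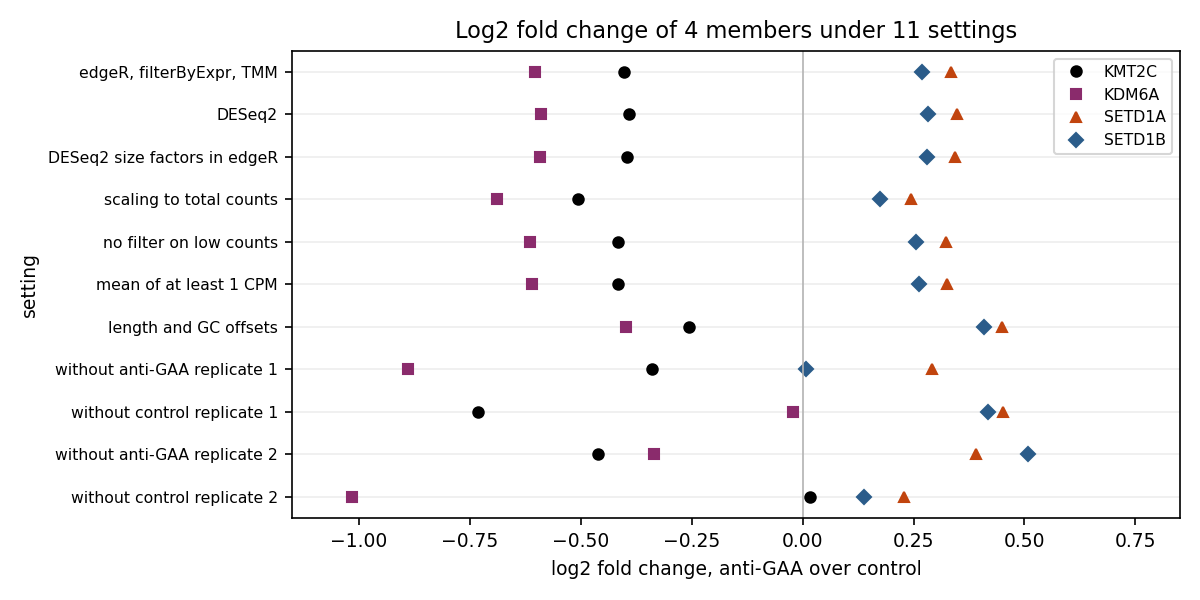
Log2 fold change (anti-GAA over control) of KMT2C, KDM6A, SETD1A and SETD1B under 11 settings of normalization, filter and libraries, 1 row each. Settings with a term for replicate number are not drawn. KMT2C moves to 0.02 without control replicate 2, KDM6A to -0.02 without control replicate 1 and SETD1B to 0.01 without anti-GAA replicate 1. SETD1A stays between 0.23 and 0.45 in the rows drawn, and was 0.47 with a term for replicate number and the offsets.

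Of 13 accessory subunits, 12 were matched and tested and 0 passed (median log2 fold change 0.05, 5 below 0). HCFC2, a homolog of the host cell factor HCFC1, was at 3.33 and 4.50 CPM in the anti-GAA libraries, against 6.13 and 7.37 CPM in the controls. Its groups did not overlap, as for 16.9% of tested genes in this direction, and its log2 fold change was -0.77 (edgeR adjusted p = 0.996). TASP1, the protease that cleaves KMT2A, had -0.32 and its controls spread from 12.9 to 23.1 CPM. BOD1 had 0.44 and DPY30, the core subunit that binds ASH2L, 0.21.

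Of 27 other SET-domain methyltransferases, all were tested and 0 passed (median 0.01, 13 below 0). SETD2, which trimethylates lysine 36 of histone H3, was at 38.8 and 40.01 CPM in the anti-GAA libraries, against 52.3 and 55.1 CPM in the controls. Its log2 fold change was -0.45 (edgeR adjusted p = 0.996) and its longest GAA run was 12 nt. Its groups did not overlap, as for 16.9% of tested genes in this direction. ASH1L, an enzyme for lysine 36, had -0.54, and EHMT1 and KMT5C had 0.21 and 0.42. Of 19 histone demethylases, 18 were tested and 0 passed (median 0.14, 6 below 0). KDM5C is a demethylase of lysine 4 of histone H3, and KDM1A (LSD1) acts on the same residue. Their log2 fold changes were 0.45 and 0.47 (edgeR adjusted p = 0.996 each). Both were higher in both anti-GAA libraries than in both controls, as were 15.5% of tested genes. The related KDM5A, KDM5B and KDM1B had -0.10, 0.18 and 0.14, with overlapping groups. JMJD1C and KDM2A had -0.40 and -0.09.

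HOX genes and MEIS1 are classical targets of KMT2A. Of 21, 18 were tested and 0 passed (median -0.07, 10 below 0), and MEIS1 was listed at 0 in every library. HOXB5 was at 7.98 and 7.92 CPM in the anti-GAA libraries, against 11.6 and 16.0 CPM in the controls, with a log2 fold change of -0.79 (edgeR adjusted p = 0.996), the one gene of these lists with an unadjusted p under 0.05. HOXB3 had -0.53, without overlap between the groups, whereas HOXB9 of the same HOXB cluster had 0.39 and HOXA3 0.46, also without overlap. Over the 18 tested, 3 were lower and 2 higher without overlap, beside 16.9% and 15.5% of all tested genes.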

How the data were processed

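RNA of HCT116 cells was sequenced in 4 libraries, 2 per ASO. Per the paper's methods and the labels, the authors trimmed reads with Trimmomatic, aligned them to hg19 with STAR and counted them on Ensembl genes with featureCounts. The authors deposited the resulting counts for each gene as whole numbers without scaling, and 0 columns of samples were left unused. The labels name a total RNA kit and the methods a stranded mRNA kit. The strand setting of the counting is not given in the sources used here.

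The analysis ran in R 4.3.3 (edgeR 4.0.16, with DESeq2 1.42.0 as an alternative) and in Python 3.11.15 with scipy 1.17.1 and pandas 2.3.3. After filterByExpr and TMM normalization, the quasi-likelihood F-test of edgeR compared the ASOs with no other term, over every gene that passed the filter. Benjamini-Hochberg adjustment covered all of these, at a threshold of 0.05. The members' intervals come from this fit, so they include differences between replicate numbers. With the replicate number as a block, the SE was smaller for every tested member, as for KMT2C (0.21 against 0.31) and WDR5 (0.14 against 0.28). Log2 CPM used a prior count of 2. Symbols, positions and sequences came from GENCODE 44 on GRCh38, joined by Ensembl identifier (52181 of 63677 matched), and no position was carried over from hg19. Primer sequences came from the study's primer list. Total counts of 10538284 to 17894953 and 2 replicates limit precision.

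All members were named, and of the other lists the 2 genes with the smallest p in each direction, plus MEIS1 for its 0. KDM5A, KDM5B and KDM1B were added as relatives of KDM5C and KDM1A. Members and lists were chosen with earlier results of these data known. Alternatives covered normalization, filters, DESeq2, the replicate number as a block, length and GC offsets and leaving out each library. Chosen after seeing the data were the comparison of KMT2C without KMT2B and the levels per kb of coding transcripts.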

Additional observations from a re-analysis of the deposited data

How the results depend on the processing

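No member was called under any of 13 alternatives. The count of all genes called lower, 0, was 3 with DESeq2, 111 without a filter on low counts, 207 with the replicate number as a block, 40 with the block in DESeq2 and 184 with the block and length and GC offsets. The count called higher, 0, was 5 without a filter, 51 with the block, 13 with the block in DESeq2 and 97 with the block and offsets. Leaving out 1 library gave 0 to 16 lower and 0 to 3 higher. With 2 replicates per ASO, the library left alone is taken to vary as the other group does.

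At an unadjusted p under 0.05, the block gave 1 member lower (KDM6A, -0.54, edgeR adjusted p = 0.248, where 9.7% of genes passed in this direction) and the block with offsets gave 2 higher (SETD1A and SETD1B, edgeR adjusted p = 0.191 and 0.179, where 10.1% of genes passed). Leaving out a library gave 0 to 1 lower, the 1 being KDM6A (-1.01) without control replicate 2, where 1.86% of genes passed in this direction. Same-numbered libraries deviated together (r = 0.564), and their titles share a prefix as well as the number, but the labels do not say what either marks, and with 2 pairs the block is an alternative.

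The direction changed for KMT2A with offsets (0.037) and with the block and offsets (0.028), and for KMT2D with the block (-0.00065), scaling to total counts (-0.090), a minimum mean of 1 CPM (-0.0064) and no filter (-0.0080). Leaving out 1 library gave -0.26 to 0.080 for KMT2A, -0.73 to 0.017 for KMT2C, -0.050 to 0.075 for KMT2D, -0.14 to 0.31 for ASH2L and -0.33 to 0.28 for WDR5. The median of all tested genes moved as well, from 0.013 to 0.058 with offsets and to 0.059 with the block and offsets. The cause of these changes was not tested. KDM6A stayed below 0 and SETD1A, SETD1B and RBBP5 above 0 under all 13. The members' median was -0.090 with scaling to total counts, where the median of all tested genes was -0.08, and -0.050 to 0.080 without 1 library. Leaving out 1 library also moved the medians of the other lists, to -0.07 to 0.16 for accessory subunits, -0.14 to 0.04 for other SET-domain enzymes, 0.0064 to 0.27 for demethylases and -0.09 to 0.03 for HOX genes and MEIS1. The difference of KMT2C from the other enzymes was -0.83 to -0.08 without 1 library and -0.51 to -0.46 elsewhere. Its mean over the 2 pairs equals the difference of the group means by construction and is not a separate check.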
